A study of Mus musculus with 43 samples.

Results

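The genes examined were 10 genes of the circadian clock, *Clock*, *Arntl*, *Per1*, *Per2*, *Per3*, *Cry1*, *Cry2*, *Nr1d1*, *Nr1d2* and *Dbp*, out of 35825 genes listed for each cell. They were chosen by name, and all 10 were found in the tables. The cells were 43 neurons of the lateral nucleus accumbens that project to the ventral tegmental area (NAcLat→VTA), marked by retrograde beads, drawn through the patch pipette and each sequenced as 1 library. By the labels, 23 cells came from mice on a regular diet (REG, standard chow only) and 20 from mice on a high-fat diet (HFD, standard chow plus a chow of 60% fat, offered for 4 weeks or longer). The batch label is 1 for 13 REG and 5 HFD cells and 2 for 10 REG and 15 HFD cells. The study's methods list mice of both sexes aged 6 to 8 weeks, C57BL/6J among several lines, and the labels name no strain, sex or mouse for a cell. The study counts 10 REG mice and 11 HFD mice, so several cells share a mouse and a diet counts as 1 sample here. For this reason values are reported with their spread over cells and without a test between diets. Mice were housed on a light and dark cycle, and the labels do not give the time of day at which a cell was collected.

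The circadian clock is a feedback loop of transcription that runs in nearly every mammalian cell, with a period of about a day. CLOCK and ARNTL (also called BMAL1) bind together to DNA motifs named E-boxes and switch on the *Per* and *Cry* genes, whose proteins return to the nucleus and repress CLOCK and ARNTL. In a linked loop, NR1D1 and NR1D2 (REV-ERBα and REV-ERBβ) repress *Arntl* through ROR elements, while *Dbp*, another E-box gene, encodes an activator that binds D-boxes. Because the messenger RNAs of the loop peak at different times of day, *Arntl* out of phase with *Per* genes and *Dbp*, their levels in a cell depend on when it was collected.

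The motifs of this loop are shown as they stand in the promoters of 6 of the genes. Windows from 250 bases before to 50 bases after the transcript start were taken from RefSeq (GRCm38.p6), where 9 of the 10 genes matched, all but *Per2*, with 13 windows. Both strands were searched for the motifs of the loop and for the cAMP response element. The E-box was taken as CACGTG. The related E′-box, which differs from it only at the last base, was taken as CACGTT, and the stretches show it as read from the other strand. The D-box was taken as TTATGTAA or TTACGTAA. The core of the ROR element was taken as TAGGTCA. The cAMP response element was taken as TGACGTCA and, as a shorter form within it, TGACG. Capitals mark E-boxes, E′-boxes, D-boxes and ROR cores in the stretches below, each written 5′ to 3′ on the strand of its gene.
Per1: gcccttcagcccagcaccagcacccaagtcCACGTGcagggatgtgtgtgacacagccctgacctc
Cry1: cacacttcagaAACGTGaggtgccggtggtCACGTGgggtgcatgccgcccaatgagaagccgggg
Cry2: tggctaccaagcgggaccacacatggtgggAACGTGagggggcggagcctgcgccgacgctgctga
Nr1d1: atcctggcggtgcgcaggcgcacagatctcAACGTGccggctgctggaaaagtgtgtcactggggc
Per3: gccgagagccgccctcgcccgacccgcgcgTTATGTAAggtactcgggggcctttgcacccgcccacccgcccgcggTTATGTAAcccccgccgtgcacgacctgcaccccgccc
Arntl: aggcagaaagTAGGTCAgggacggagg

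The *Per1* stretch is chr11:69098753-69098818 on the plus strand, which lies between annotated exons of *Per1*. The stretches of *Cry1* (chr10:85185079-85185144), *Cry2* (chr2:92434200-92434265), *Nr1d1* (chr11:98775370-98775435) and *Per3* (chr4:151044786-151044900) are on the minus strand and lie upstream of the annotated gene. The *Arntl* stretch is chr7:113207531-113207557 on the plus strand and lies in an annotated exon. An E-box stood in the windows of 2 of the 9 matched genes (*Per1* and *Cry1*), against 8.09% of all 27025 genes with a window. An E′-box stood in those of 3 genes (*Cry1*, *Cry2* and *Nr1d1*), against 5.44% of genes. The D-box was present only in *Per3* among the 9 genes, with 2 copies, and in 1.23% of genes. The ROR element core was present only in *Arntl* among them, and in 2.97% of genes. The cAMP response element was in none of the 9 genes and in 2.03% of all genes, and its shorter form was in *Per1*, *Cry1* and *Cry2* and in 23.05% of all genes. These are matches of letters, and *Clock*, *Nr1d2* and *Dbp* held none of these motifs within their windows.

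The depth of the libraries was uneven. The authors deposited estimated counts and TPM (transcript levels per length, scaled to a fixed sum in each cell), and the total count of a cell lay between 176961 and 16919555, with a median of 1427698 in REG cells and 1416982 in HFD cells. The median number of genes with counts was 10222 in REG cells and 9639.5 in HFD cells. The labelled cell type was checked with its markers: *Gad1* and *Gad2* of inhibitory neurons and *Drd1*, *Ppp1r1b*, *Pdyn* and *Tac1* of D1 medium spiny neurons had counts in all 43 cells. The other markers of these lists, *Slc32a1*, *Isl1* and *Chrm4*, had counts in 36, 36 and 26 cells. Of the D2 markers, *Penk* had counts in 35 cells, *Adora2a* in 13, *Drd2* in 9 and *Gpr6* in 6, and *Penk* exceeded 15 CPM in 21 cells. The oligodendrocyte marker *Mbp* had counts in 40 cells. In 6 cells (2 REG and 4 HFD), at least 4 of 7 microglial markers exceeded 15 CPM (counts over the total of the cell, times 1000000). Over all cells the summed CPM of these 7 markers had a median of 50.8 in REG cells (range 0.341 to 1326) and of 52.3 in HFD cells (range 2.61 to 1467). In 3 further cells (REG cell 16, HFD cell 8 and HFD cell 19), fewer than 5000 genes remained when each cell was thinned to 150000 counts.

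Each of the 10 clock genes had counts in 34 to 42 of 43 cells. Of all filtered genes, whose median was 34 cells, 52.4% had counts in at least 34 cells. *Cry1*, with the fewest, had counts in 23 cells after each cell was thinned to 150000 counts. All 10 genes were present together in 24 cells, 13 REG and 11 HFD. The median cell had counts on 10 of the genes in either diet, with a range of 7 to 10 in REG cells and 6 to 10 in HFD cells. When cells were thinned to equal depth, the median was 9 genes in REG cells and 8 in HFD cells. All 10 genes passed the filter for expressed genes, which asks for more than 15 CPM in 5 or more cells and for a mean of more than 4 CPM and kept 10802 genes.

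Levels were compared between genes as TPM, which divides by transcript length. *Dbp*, the D-box activator, had a median of 149 TPM (quartiles over 43 cells 51.6 and 264) and stood at the 94.6th percentile of the filtered genes by median TPM. *Cry2* followed with a median of 37.2 TPM, *Per1* with 31.7 TPM and *Nr1d1* with 23.5 TPM. The middle of the order was narrow, with medians of 12.97 TPM for *Nr1d2*, 12.7 TPM for *Clock*, 11.2 TPM for *Per3* and 10.96 TPM for *Arntl*. *Per2* had a median of 8.07 TPM, and *Cry1* was lowest with 2.46 TPM, at the 37.4th percentile of filtered genes.

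**Figure D1:**
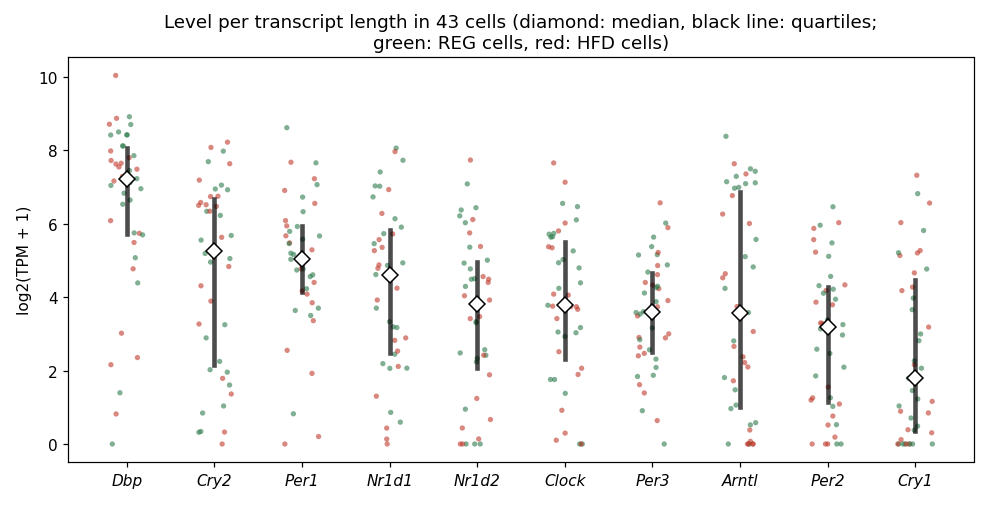
Level of each clock gene per transcript length, as log2(TPM + 1), in the 43 cells (points, green for REG and red for HFD), with the median (diamond) and quartiles (line). *Dbp* stands highest, with a median of 149 TPM, and *Arntl* has the longest quartile line, from 1.02 to 116 TPM.

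Every pair of neighbours in this order had overlapping quartiles over cells. *Dbp* exceeded *Cry2* in the same cell in 35 of 43 cells, whereas the other neighbours, such as *Cry2* over *Per1* (22 cells) or *Clock* over *Per3* (22 cells), were ordered either way in similar numbers of cells. *Arntl* was the most widely spread by its quartiles on the log scale plotted, from 1.02 to 116 TPM, and ranked 4th by mean TPM but 8th by median TPM. Its rank also differed between diets, as the median was 27.3 TPM in REG cells (rank 5) and 4.75 TPM in HFD cells (rank 10). *Dbp* ranked highest in either diet, with a median of 138 TPM in REG cells and 167 TPM in HFD cells.

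Diets were compared by the log2 of mean CPM in HFD cells over mean CPM in REG cells, every cell having the same weight. None of the 10 genes lay past a log2 ratio of 1 in either direction, where 23.3% of all 10802 filtered genes did (52.4% of the 23541 genes with any count). Their ratios ran from −0.95 (*Arntl*) to 0.93 (*Cry1*), with 6 genes higher and 4 lower in HFD cells and 6 genes within 0.5 of 0. The median ratio was 0.04 over the 10 genes and −0.13 over the filtered genes, whose quartiles were −0.65 and 0.40. For all 10 genes the ranges of the REG and HFD cells overlapped, each diet having cells at or near 0 CPM. The share of filtered genes with overlapping ranges was not taken. With 1 cell left out, 0 to 2 genes lay past 1. These were *Arntl* and *Cry1*, both close to that limit, and *Nr1d1* when HFD cell 20 was left out (−1.17).

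**Figure D2:**
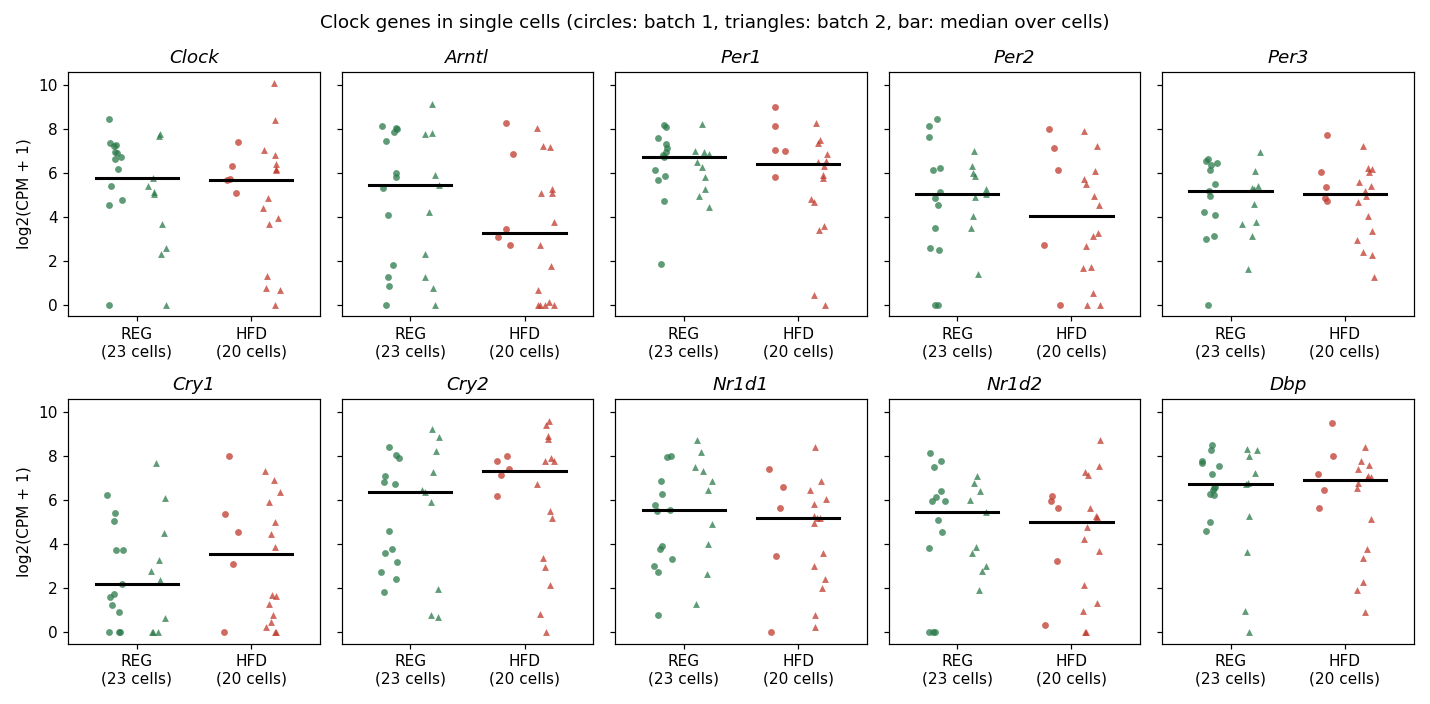
Level of each clock gene in each cell as log2(CPM + 1), by diet and batch (circles for batch 1, triangles for batch 2), with the median over cells as a bar. The ranges of REG and HFD cells overlap in every panel, and the bars lie farthest apart for *Arntl*, with medians of 42.7 CPM in REG and 8.82 CPM in HFD cells.

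*Arntl* and *Clock* encode the activators of the loop. *Arntl*, the partner of CLOCK (chr7:113207465-113314126, plus strand, GRCm38), had 0, 42.7 and 571 CPM as lowest, median and highest value in REG cells and 0, 8.82 and 310 CPM in HFD cells. The mean was 110 ± 145 CPM over the 23 REG cells and 56.9 ± 92.5 CPM over the 20 HFD cells (here and later ± SD over cells), a log2 ratio of −0.95. In both diets some cells had none and others more than the mean of either diet, so the spread over cells exceeded the difference of the means. *Arntl* had counts in 21 of 23 REG cells (91.3%, exact 95% binomial interval 72.0% to 98.9%) and in 16 of 20 HFD cells (80.0%, interval 56.3% to 94.3%). After thinning it was found in 20 REG cells and 11 HFD cells, and it exceeded 15 CPM in 15 REG cells and 8 HFD cells. Batch 1 alone gave −0.25 and batch 2 alone −1.31. With any 1 cell left out it lay between −1.33 (without HFD cell 5) and −0.65 (without REG cell 14). Summed over cells, *Arntl* had 13549 counts in REG (95% Poisson interval, exact, 13322 to 13779) and 2271 in HFD (2179 to 2366). REG cell 14, the most deeply sequenced cell, was also the highest in *Arntl* and alone held 9662 of the 13549 REG counts. Poisson intervals leave out the spread over cells, and reads copied by amplification are not separate molecules.

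*Clock*, the other activator (chr5:76209868-76304792, minus strand), had 0, 53.5 and 354 CPM as lowest, median and highest value in REG cells and 0, 51.0 and 1097 CPM in HFD cells. The medians were close, while the means were 88.5 ± 88.6 CPM and 118 ± 243 CPM, a log2 ratio of 0.42. HFD cell 13 held 46.3% of the *Clock* CPM summed over its diet, and leaving it out gave a ratio of −0.40. In the same cell *Arntl*, *Per1* and *Per2* had no counts, so its high *Clock* stood beside no counts of the partner. The ratio also turned between batches, at −0.52 within batch 1 and 1.13 within batch 2, the batch of that cell. It was −0.33 with summed counts and −0.33 for the mean of log2(CPM + 1), below 0 as for *Arntl*.

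The *Per* genes encode the repressors that pair with the CRY proteins, and *Per1* also responds rapidly to neuronal activity. *Per1* (chr11:69095217-69109960, plus strand) had 2.69, 107 and 300 CPM as lowest, median and highest value in REG cells and 0, 85.6 and 506 CPM in HFD cells. It had counts in all 23 REG cells and in 19 of 20 HFD cells and exceeded 15 CPM in 38 of the 43 cells. The mean was 113 ± 84.7 CPM in REG and 116 ± 126 CPM in HFD cells, which gives a log2 ratio of 0.05 (batch 1, 0.83, and batch 2, −0.26). *Per2* (chr1:91415982-91459324, minus strand) had 0, 32.2 and 353 CPM in REG and 0, 15.8 and 255 CPM in HFD cells. Its log2 ratio was −0.27, and it turned to 0.04 without REG cell 11, the highest REG cell. The pooled value lay below that of either batch, 0.18 within batch 1 and −0.11 within batch 2, whose mean was 0.04. *Per3* (chr4:151003652-151044665, minus strand), regarded as less essential for the rhythm, had 0, 36.1 and 124 CPM in REG and 1.46, 32.8 and 215 CPM in HFD cells. Its log2 ratio was 0.19, with −0.10 without HFD cell 2. For *Per1* the ratio was −0.23 without HFD cell 5, so the sign of all 3 *Per* genes rested on single cells. Other settings moved these ratios further, to 0.85 for *Per1* with DESeq2 size factors, −0.79 for *Per2* with mean log2(CPM + 1) and −0.96 for *Per3* with summed counts.

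The *Cry* genes encode the strongest repressors of CLOCK and ARNTL, and both had a higher mean in HFD cells. *Cry2* (chr2:92403646-92434043, minus strand) had 0.631, 81.5 and 610 CPM as lowest, median and highest value in REG cells and 0, 158 and 774 CPM in HFD cells. The mean was 133 ± 167 CPM in REG and 208 ± 228 CPM in HFD cells, which gives a log2 ratio of 0.65. The sign held within batch 1 (0.83), within batch 2 (0.30) and with any 1 cell left out (0.43 to 0.91). The ratio was 0.36 without the 6 cells with microglial markers and 0.44 without the 3 cells with few genes, and it was 1.64 with DESeq2 size factors. *Cry1* (chr10:85131700-85185064, minus strand), the sparsest gene, had 0, 3.56 and 204 CPM in REG and 0, 10.7 and 255 CPM in HFD cells. Its counts were found in 17 of 23 REG cells (73.9%, interval 51.6% to 89.8%) and in 17 of 20 HFD cells (85.0%, interval 62.1% to 96.8%). The mean was 21.7 ± 45.1 CPM and 41.2 ± 67.2 CPM, a log2 ratio of 0.93. That ratio was 2.20 within batch 1, which has 5 HFD cells, and 0.08 within batch 2. REG cell 14 held 41.0% of the summed *Cry1* CPM of its diet, and without it the ratio was 1.62, while without HFD cell 5 it was 0.47. With summed counts, which weight deep cells more, it was −0.10, the opposite sign.

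The nuclear receptors that repress *Arntl* had unlike ratios. *Nr1d1* (chr11:98767932-98775333, minus strand) had 0.708, 46.8 and 430 CPM as lowest, median and highest value in REG cells and 0, 35.4 and 349 CPM in HFD cells. The mean was 96.9 ± 116 CPM in REG and 58.4 ± 82.2 CPM in HFD cells, which gives a log2 ratio of −0.73. It was −0.09 within batch 1 and −1.24 within batch 2, −1.17 without HFD cell 20, −0.49 without REG cell 14 and −1.10 without the 6 cells with microglial markers. *Nr1d2* (chr14:18204054-18239127, minus strand) had 0, 43.3 and 283 CPM in REG and 0, 31.6 and 435 CPM in HFD cells. Its means were alike, 65.9 ± 76.3 CPM and 65.2 ± 103 CPM, a log2 ratio of −0.01. That value joined opposite ones, −1.05 within batch 1 and 0.63 within batch 2. Of the exonic bases of *Nr1d1*, 8.55% (263 bases) overlap exons of *Thra* on the opposite strand, whose mean was 205 CPM in REG and 155 CPM in HFD cells (log2 ratio −0.41). The methods do not state that strand was used, and reads from the shared bases cannot be told apart.

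*Dbp*, the output gene (chr7:45705088-45710203, plus strand), had 0, 106 and 362 CPM as lowest, median and highest value in REG cells and 0.914, 120 and 742 CPM in HFD cells. The mean was 140 ± 112 CPM in REG and 144 ± 169 CPM in HFD cells, which gives a log2 ratio of 0.04. Within batches it was 0.79 and −0.29, and without HFD cell 2, which held the 742 CPM, it was −0.32. Exons of *Sphk2* on the opposite strand overlap 18.01% of the exonic bases of *Dbp* (539 bases). *Sphk2* had counts in 26 cells, with a median of 0.721 CPM over all cells and means of 28.2 CPM in REG and 7.74 CPM in HFD cells. Exons of *Gm45355* and *D930015M05Rik*, on the opposite strand, overlap 33 bases of *Arntl* and 295 bases of *Cry2*, and these transcripts were not analysed here.

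**Figure D3:**
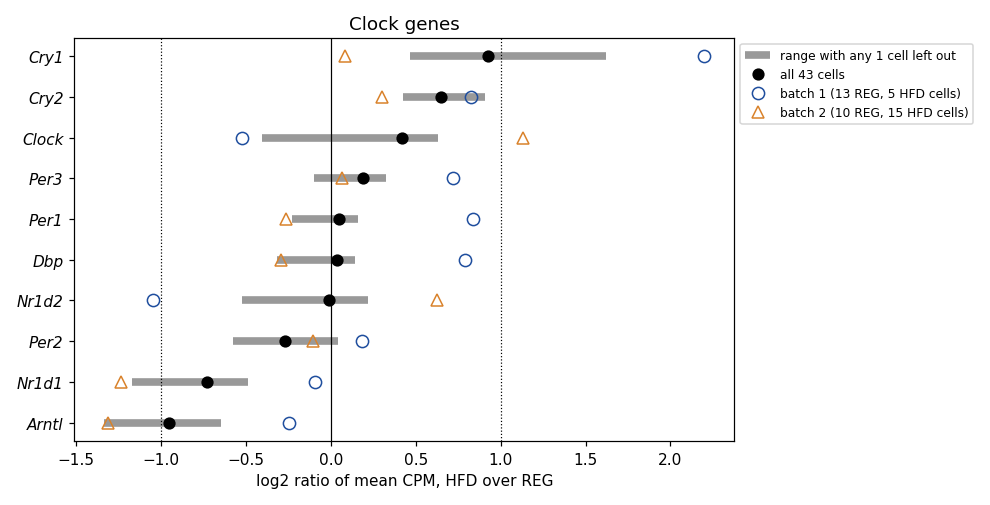
Log2 ratio of mean CPM in HFD cells to that in REG cells for each clock gene over all 43 cells (filled points), with the range when any 1 cell is left out (bars) and the ratio within batch 1 (circles) and batch 2 (triangles); dotted lines mark −1 and 1. All filled points lie between −0.95 and 0.93, and the batches fall on opposite sides of 0 for *Clock*, *Per1*, *Per2*, *Nr1d2* and *Dbp*.

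The ratios were not the same in the batches. Of the 10 genes, 5 had the same sign in both batches (*Arntl*, *Per3*, *Cry1*, *Cry2* and *Nr1d1*), against 49.2% of the filtered genes. Past a log2 ratio of 1 were 2 genes within batch 1 (*Cry1* and *Nr1d2*), against 42.2% of filtered genes, and 3 genes within batch 2 (*Clock*, *Arntl* and *Nr1d1*), against 34.6%. The sign held with any 1 cell left out for 4 genes (*Arntl*, *Cry1*, *Cry2* and *Nr1d1*), against 61.1% of filtered genes. *Arntl* (lower in HFD cells), *Nr1d1* (lower) and *Cry2* (higher) kept their sign also in all 12 other settings of scaling, weighting, batch, depth and cells. Among filtered genes 28.3% did so, and 3 of 10 genes is near that share. Other genes moved with the cells left out. Without the 6 cells with microglial markers the ratio was −0.61 for *Per2*, −0.57 for *Nr1d2*, 0.21 for *Per1* and −0.06 for *Dbp*, and without the 3 cells with few genes it was −0.06 for *Per1* and 0.11 for *Nr1d2*.

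The arms of the loop were also summed within each cell as TPM. The activator arm, *Clock*, *Arntl* and the *Clock* paralogue *Npas2*, had a median of 93.2 TPM in REG cells (range 0.435 to 477) and of 38.9 TPM in HFD cells (range 0.0594 to 381). The mean was 124 TPM in REG cells and 86.1 TPM in HFD cells, a log2 ratio of −0.52 (batch 1, −0.36, and batch 2, −0.48). The other arm, the 8 genes that CLOCK and ARNTL drive (the *Per* and *Cry* genes, *Nr1d1*, *Nr1d2* and *Dbp*), had a median of 449 TPM in REG cells (range 49.6 to 1020) and of 379 TPM in HFD cells (range 43.3 to 1312). Its mean was 436 TPM in REG cells and 448 TPM in HFD cells, so that mean and median were ordered oppositely. Its log2 ratio was 0.04 (batch 1, 0.72, and batch 2, −0.31). The driven arm exceeded the activator arm in 39 of 43 cells, 21 REG and 18 HFD. That count follows in part from how the arms were defined, since the driven arm sums more genes. Over all cells *Dbp* alone had a mean of 189 TPM, where the whole driven arm had a mean of 441 TPM. Both arms varied over cells by more than they differed between diets.

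The wider clock pathway was read from a list of 20 further genes, of which 17 passed the filter. No gene of the 17 had a log2 ratio above 1, where 9.04% of filtered genes did, and 2 had a ratio below −1, where 14.3% did. These counts changed with the scaling. With TPM 1 gene was above 1 (*Rorb*, 1.43) and 1 below −1 (*Csnk1e*, −1.39). For *Csnk1e*, REG cell 9 alone had 1806 TPM, against a median of 35.4 TPM over REG cells. With TMM factors 2 were above (*Rorb*, 1.03, and *Bhlhe41*, 1.30) and 1 below. With DESeq2 size factors 4 were above (*Rorb*, 1.09, *Tef*, 1.20, *Bhlhe41*, 1.33, and *Fbxw11*, 1.28) and 2 below. Shares of all filtered genes under these scalings are not given here. With any 1 cell left out, 0 to 2 were above and 1 to 3 below. The median over the 17 genes was 0.10, and 7 of them had the same sign in both batches, against 49.2% of the filtered genes. *Hlf*, a D-box activator related to *Dbp*, was the lowest of the 17. It had 0, 23.9 and 374 CPM as lowest, median and highest value in REG cells and 0, 14.4 and 83.0 CPM in HFD cells, with counts in 21 and 18 cells. The mean was 72.4 ± 107 CPM in REG and 17.5 ± 20.5 CPM in HFD cells, which gives a log2 ratio of −2.05. The diets overlapped, but the upper quartile of REG cells, 100.4 CPM, lay above the highest HFD cell. In TPM it did not, as the upper quartile of REG cells was 34.2 TPM and the highest HFD cell had 193 TPM. The ratio was −2.11 within batch 1, −1.94 within batch 2 and between −2.37 and −1.75 with any 1 cell left out, and 3.93% of filtered genes lay below −1 in all of these. It was −0.93 with TPM and −0.67 with summed counts, no longer past 1, and −2.58 without the cells with microglial markers. The 193 TPM was in HFD cell 10, against a median of 5.45 TPM over HFD cells, and the ratios with 1 cell left out are for CPM only. *Tef*, the remaining relative of *Dbp* and *Hlf*, had a ratio of 0.18, and of −0.02 without HFD cell 20.

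*Ciart*, a repressor of CLOCK and ARNTL, had a log2 ratio of −1.12, with −0.17 within batch 1, −1.83 within batch 2, −0.66 without REG cell 19 and −1.77 without HFD cell 16. *Bhlhe41*, which competes for E-boxes, had counts in all 43 cells and a median of 290.1 TPM, above that of *Dbp*. REG cells had a mean of 1752 CPM and HFD cells of 3493 CPM, and the pooled log2 ratio was just under 1. Within batch 1 the ratio was −1.20 and within batch 2 it was 0.83, both below the pooled ratio. The sign thus turned with batch, and the mean of both batches for *Bhlhe41* was −0.18. Its relative *Bhlhe40* turned the other way, at 2.85 within batch 1 and −1.57 within batch 2. The ROR receptors, which activate *Arntl* at the element that NR1D1 occupies, had log2 ratios of 0.31 for *Rora* and 0.90 for *Rorb*. Both turned with batch, *Rora* from 0.14 to −0.11 and *Rorb* from −0.66 to 0.998 between batch 1 and batch 2, and leaving out 1 cell gave −0.08 for *Rora* (HFD cell 10) and 0.48 for *Rorb* (HFD cell 13). *Rorb* was low, with a median of 3.85 CPM over all cells and more than 15 CPM in 10 of the 43. In TPM, HFD cell 13 had 33.3 for *Rorb*, against a median of 0.869 over all cells. The kinase genes of the list had pooled ratios near 0, with −0.10 for *Csnk1d*, 0.14 for *Csnk1e*, 0.13 for *Csnk1a1* and 0.10 for *Gsk3b*. *Csnk1e* was far from 0 elsewhere, with 1.17 within batch 1, −0.45 within batch 2, −1.39 with TPM (REG cell 9 at 1806 TPM), −1.01 with mean log2(CPM + 1) and −0.73 without HFD cell 1. *Csnk1a1* was 0.90 with DESeq2 size factors. The F-box proteins that direct PER degradation had ratios of 0.65 (*Btrc*) and −0.45 (*Fbxw11*). *Btrc* was 1.95 within batch 1, −0.28 within batch 2 and −0.03 without HFD cell 1. *Fbxw11* was −2.10 within batch 1, −0.31 within batch 2, −1.02 without HFD cell 19 and −0.06 without REG cell 1. Its sign turned with summed counts (0.77) and with DESeq2 size factors (1.28). *Npas2* had a ratio of −0.43, *Arntl2* of −0.46 and *Nfil3*, a D-box repressor, of 0.17. *Npas2* was −0.11 without REG cell 1. *Arntl2* was 0.45 within batch 1, −1.07 within batch 2, −1.35 without HFD cell 16, −1.32 after thinning and 0.08 with TPM. In TPM its highest cell was HFD cell 1, with 566 TPM from 5 counts, against a median of 4.83 TPM over HFD cells. *Nfil3* was 1.07 within batch 1 and −0.50 within batch 2, and −0.23 without HFD cell 12. *Timeless* and *Fbxl21* did not pass the filter.

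Relations between the clock genes over single cells were weak. Spearman's rho of CPM over the 43 cells had a median of 0.23 over the 45 pairs of clock genes, and 43 pairs were above 0. Over all pairs of filtered genes the median was 0.08, with quartiles of −0.03 and 0.19, and 68.3% were above 0. The median rho of a clock gene with all filtered genes ran from 0.06 (*Nr1d2*) to 0.16 (*Cry2*). Within batch 1 the median over the 45 pairs was 0.15, with 31 pairs above 0, and within batch 2 it was 0.28, with 40 pairs above 0. In REG cells 38 pairs were above 0 and in HFD cells 36. *Clock* and *Per3* had the highest value, 0.52, followed by *Per1* and *Cry2* with 0.50, while *Per1* and *Per2*, as well as *Arntl* and *Nr1d1*, had 0.40. *Per1* and *Nr1d2* had the lowest, −0.14. *Arntl* and *Dbp*, which peak at different times of day in most tissues, had a rho of 0.09. That value joined opposite ones, −0.37 within batch 1 and 0.31 within batch 2, and it was −0.08 after thinning. Between a repressor and its target, *Nr1d1* and *Arntl* were positively related in REG cells (0.49) and HFD cells (0.18). These are descriptions over cells that share mice, batches and library size: rho with the number of genes detected was 0.55 for *Cry1*, 0.49 for *Nr1d1*, 0.41 for *Cry2* and 0.39 for *Arntl*. With cells thinned to equal depth the median over pairs was 0.19.

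**Figure D4:**
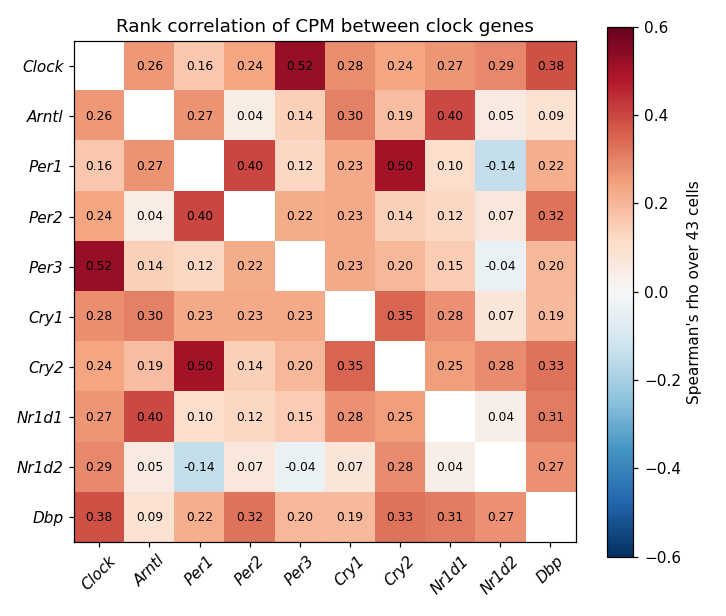
Spearman's rho of CPM over the 43 cells for each pair of clock genes, from blue (negative) to red (positive). The deepest red cells are *Clock* with *Per3* (0.52) and *Per1* with *Cry2* (0.50), and the only negative values are those of *Nr1d2* with *Per1* (−0.14) and *Per3* (−0.04).

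For each clock gene the 3 filtered genes with the highest rho over the 43 cells were listed, and no list of 3 held another clock gene. *Cry2* had the closest matches, *Pafah1b2* (0.76), *Golga7* (0.74) and *Fam214a* (0.72). *Arntl* was followed by *Preb* (0.72), *Ccdc88c* (0.72) and *Vcl* (0.67), and *Dbp* by *Afdn* (0.70), *Npepps* (0.67) and *Ube2w* (0.62). *Clock* was nearest to *Arhgap44* (0.67) and *Per1* to *Csnk2a2* (0.66). For the remaining genes the highest values were 0.65 for *Rab40c* with *Cry1*, 0.64 for *E130308A19Rik* with *Per3*, 0.64 for *Ammecr1l* with *Nr1d1*, 0.61 for *Sertad1* with *Per2* and 0.57 for *Tial1* with *Nr1d2*. Of the 30 genes listed, 14 were still among the 3 highest after thinning, among them all 3 for *Arntl* and for *Cry2*. These values are the highest of 10802 genes over 43 cells and carry no test.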

How the data were processed

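Patch-seq libraries of 43 cells were analysed, grouped by the diet label and the batch label. The authors used kallisto with the Ensembl transcripts of GRCm38, removed cells with few reads or genes and deposited estimated counts without normalization and TPM scaled within each cell. Of the counts above 0, 65.5% lay within 0.01 of a whole number. CPM is the estimated count over the total of the cell times 1000000. Ratios use means of CPM and no pseudocount. Counts were rounded for thinning to 150000 counts, TMM factors and size factors. Shares carry exact (Clopper-Pearson) 95% intervals and summed counts exact Poisson intervals, for counting error only. No columns of the authors' own comparisons were used.

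The clock genes, the 20 pathway genes and the marker lists were chosen with earlier results of these data known. All members, the pathway genes (some are not reported here by name), genes whose exons overlap a member and, for each member that itself had counts in at least 30 cells, the 3 most alike filtered genes were named. REG cell and HFD cell numbers follow accession order and only name cells. The ratio was tested on simulated counts. Coordinates come from GENCODE (GRCm38) and promoter sequences from RefSeq. Alternatives were TPM, TMM factors, size factors from DESeq2, totals lacking *Lars2* and *Gm19220*, summed counts, mean log2(CPM + 1), each batch and their mean, thinning and each cell left out. Those without cells with microglial markers or with under 5000 genes, and the arms within each batch, were chosen after seeing the data. The factors came from edgeR 4.0.16 and DESeq2 1.42.0 in R 4.3.3, and the remaining values from scipy 1.17.1, pandas 2.3.3 and numpy 2.4.6 in Python 3.11.15, with figures by matplotlib 3.10.9.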

Additional observations from a re-analysis of the deposited data

How the results depend on the processing

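The number of clock genes past a log2 ratio of 1 between diets, 0 as reported, was 2 with TPM (*Arntl* and *Cry1*), 1 with TMM factors (*Cry1*), 2 with DESeq2 size factors (*Cry1* and *Cry2*), 1 each with totals without *Lars2* and *Gm19220*, with the mean of both batches and after thinning (*Cry1*), 1 each with summed counts and with mean log2(CPM + 1) (*Arntl*), 2 within batch 1, 3 within batch 2, 1 without the cells with microglial markers (*Nr1d1*), 0 without the cells with few genes and 0 to 2 with any 1 cell left out. The median ratio over the 10 genes, 0.04, was −0.043 with TPM, 0.21 with TMM factors, 0.22 with DESeq2 size factors, −0.16 with summed counts, −0.39 with mean log2(CPM + 1), 0.45 within batch 1 and 0.27 for the mean of both batches, and −0.048 (without HFD cell 2) to 0.14 (without REG cell 18) with any 1 cell left out. TMM factors and size factors shifted the median of all filtered genes by 0.14 and 0.27, and mean log2(CPM + 1) by −0.12. Of 120 ratios of clock genes under the 12 settings, 96 kept their sign, and with summed counts, which weight deep cells, 4 of 10 did. The cause was not tested. The activator arm had a ratio of −0.59 without *Npas2*, −0.36 within batch 1 and −0.48 within batch 2, and the driven arm 0.10 without *Per1*, 0.72 within batch 1 and −0.31 within batch 2. The order of the genes by level had a Spearman correlation with the reported order of 0.82 by mean TPM and 0.95 by median CPM. The median rho over pairs was 0.19 after thinning, where 14 of 30 most alike genes stayed. Of 20 detection shares, 5 fell outside their interval after thinning and 16 with a limit of 15 CPM. Without a filter, 52.4% of 23541 genes lay past 1. No paired analysis was possible because no test was made and no label ties cells to mice.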
